A study of Homo sapiens with 12 samples.

Results

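Untreated MOLM13 cells were compared with untreated OCI-AML3 cells by ATAC-Seq, the question being how chromatin accessibility differs at baseline between an AML line with rearranged MLL1 (MLL1-r, gene KMT2A) and one with mutant NPM1 (mtNPM1). The members were all the control libraries of these lines, 2 of MOLM13 and 2 of OCI-AML3, out of 12 libraries in the series. MOLM13 control cells had no inhibitor and carry MLL1-r; OCI-AML3 control cells had no inhibitor and carry mtNPM1. Both lines grew in the same RPMI medium with 20% FBS and were frozen before nuclei were isolated and cut with Tn5. The libraries outside the comparison were MOLM13 and OCI-AML3 cells exposed to the Menin inhibitor VTP50469 at 500 nM for 16 h, and control cells of MV4-11, a further MLL1-r line. Each genotype is represented here by 1 line, so genotype and line cannot be told apart, and neither lesion can be read from a peak list. The labels do not say that replicates came from separate cultures, so the p-values below measure only the spread between these libraries.

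ATAC-Seq marks DNA that Tn5 can reach, mostly promoters and enhancers bound by transcription factors. In MLL1-r leukemia the fusion protein, held on chromatin with Menin, keeps HOXA genes, MEIS1, MEF2C and PBX3 active. In mtNPM1 leukemia wild-type MLL1 and Menin act on HOXA and also HOXB genes together with MEIS1. SPI1 and CEBPA are the transcription factors that define the myeloid lineage, in which both lines were derived.

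The deposited lists held 77753 and 90270 MOLM13 peaks and 69119 and 92554 OCI-AML3 peaks on chromosomes 1 to 22. Each library was cut to its 69119 peaks with the highest −log10 p, so that a longer list could not by itself yield more regions. At equal number, MOLM13 peaks covered 18.6 and 20.1 Mb, and OCI-AML3 peaks covered 16.0 and 17.0 Mb. The median number of reads at a summit was 10 and 12 in MOLM13, against 10 and 11 in OCI-AML3, and the total number of reads per library was not known. Promoter peaks at SPI1, CEBPA and LYZ, which mark myeloid cells, were present in all 4 control libraries. Of 10 myeloid marker promoters 6 and 8 had a peak in MOLM13, against 5 and 7 in OCI-AML3, while none of 7 erythroid marker promoters had a peak in any library. The T cell genes CD3D, CD3E, CD3G and LCK had no promoter peak in any of the 4, although CD8A and BCL11B did in all of them.

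Peaks that overlapped by at least 1 bp were merged into 131146 regions. MOLM13-only regions, called in both MOLM13 libraries and in neither OCI-AML3 library, numbered 9248, or 7.05% of all regions. OCI-AML3-only regions numbered 6762, or 5.16%. In all 4 libraries 27140 regions (20.7%) were called, and the other 87996 were called in some other combination of libraries. MOLM13 replicates shared 50.3% of the regions called in either, OCI-AML3 replicates shared 43.1%, and libraries of different lines shared between 34.3% and 39.4%. The lines thus differed by more than their replicates did, although the gap to the OCI-AML3 replicates was small. With 2 libraries per line the smallest two-sided exact permutation p is 0.333, so presence at a single region could not be tested. Absence of a peak means that the caller listed none, which does not show that the DNA is closed. When a single library defined a line, its count grew, since fewer libraries had to meet the rule: MOLM13-only regions numbered 26045 without MOLM13 control replicate 1 and 26816 without replicate 2, and OCI-AML3-only regions numbered 24457 without OCI-AML3 control replicate 1 and 27506 without replicate 2. With 34559 peaks per library the counts were nearly equal, 4654 MOLM13-only and 4637 OCI-AML3-only. MOLM13-only regions grew to 14167 without OCI-AML3 control replicate 2.

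Regions called in 1 line only were weak and mostly distal. The median of the highest −log10 p was 9.9 for MOLM13-only and 10.2 for OCI-AML3-only regions, against 22.3 for regions in all 4 libraries. The highest value was taken over 2 libraries for a line-only region and over 4 for a shared region. Shared regions were also wider (median 534 bp, against 253 and 243 bp). Part of this gap can thus come from the measure itself. Promoters, here 1 kb on either side of a start site, held 7.93% of MOLM13-only and 12.3% of OCI-AML3-only regions, against 38.6% of regions in all 4. Gene bodies held 53.3% of MOLM13-only and 52.1% of OCI-AML3-only regions. At low strength the lines diverged most. Of 21981 regions whose lower −log10 p in the MOLM13 libraries was under 10, 35.0% had no OCI-AML3 peak, and of 18719 such OCI-AML3 regions 28.2% had no MOLM13 peak. Above a −log10 p of 40 in both libraries of a line, 0 of 1297 MOLM13 regions and 5 of 986 OCI-AML3 regions lacked a peak in the other line. Most line-only regions were also missing from the full lists of the other line (91.7% of MOLM13-only and 87.1% of OCI-AML3-only regions).

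Libraries that played no part in the choice of regions were then examined, with 69119 peaks each except the second treated OCI-AML3 library, whose whole list held 67424. VTP50469-treated MOLM13 libraries had a peak at 67.9% and 73.2% of MOLM13-only regions, and treated OCI-AML3 libraries at 16.1% and 14.7%. OCI-AML3-only regions had a peak in 66.0% and 63.3% of cases in treated OCI-AML3 libraries, and in 16.3% and 18.0% in treated MOLM13 libraries. Control MV4-11 cells, which share MLL1-r with MOLM13, had a peak at 58.5% and 59.7% of MOLM13-only regions and at 34.9% and 36.1% of OCI-AML3-only regions. The treated libraries thus kept the order of their line, and MV4-11 covered more MOLM13-only than OCI-AML3-only regions. With 1 mtNPM1 line, sharing of a region between MOLM13 and MV4-11 cannot be told apart from its loss in OCI-AML3.

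**Figure D1:**
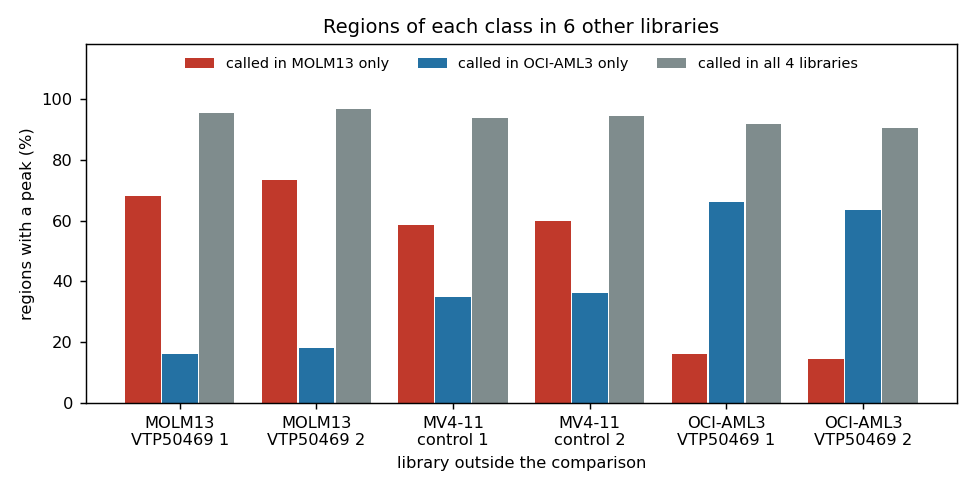
Percentage of regions (vertical axis) with a peak in each of 6 libraries outside the comparison (horizontal axis), cut to 69119 peaks except the second treated OCI-AML3 library, whose list held 67424, for MOLM13-only (red), OCI-AML3-only (blue) and shared (grey) regions. Red bars are 67.9% and 73.2% in treated MOLM13 and 16.1% and 14.7% in treated OCI-AML3; blue bars have the opposite order.

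At the promoters of 18787 protein-coding genes the direction of the counts turned. Promoters open in MOLM13 only numbered 240 (1.28%), and promoters open in OCI-AML3 only numbered 440 (2.34%), while 10207 were open in all 4 libraries. With 1 library left out these counts ranged from 406 to 460 for MOLM13 and from 603 to 713 for OCI-AML3. The counts past 1.5 times the full value came without MOLM13 control replicate 1 (460), MOLM13 control replicate 2 (441), OCI-AML3 control replicate 1 (406) and OCI-AML3 control replicate 2 (458) for MOLM13. For OCI-AML3 they came without OCI-AML3 control replicate 1 (701) and replicate 2 (713). In each of these settings OCI-AML3 kept the larger count.

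The strongest regions of 1 line only that also lacked any peak in the full lists of the other line were taken as the 10 with the highest lower −log10 p. In MOLM13 the first was the promoter of GOT1, a cytosolic aspartate aminotransferase, with folds over local background of 13.98 and 15.08 (chromosome 10, 99430336 to 99431195) and no OCI-AML3 peak. The promoter of ARRDC4, an arrestin-like regulator of glucose uptake, had folds of 13.4 and 12.3. Others lay inside ZHX1, a repressor with homeodomains, MDN1, an ATPase of ribosome assembly, and LYN, a Src-family kinase of myeloid cells. LYN had folds of 10.5 and 12.6 in MOLM13 at 59.6 kb from its start site. All 10 MOLM13 regions were called in both treated MOLM13 libraries and 8 in both MV4-11 libraries, and 0 in both treated OCI-AML3 libraries. One of the 10, between genes near LOC101928626 on chromosome 1, was of another kind, with folds of only 1.53 and 1.51 on 836 and 911 summit reads.

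In OCI-AML3 the first was a region in CNIH3, an auxiliary subunit of glutamate receptors, with folds of 13.8 and 15.4 and no MOLM13 peak. It was followed by the promoters of the zinc-finger genes ZNF695 (14.2 and 16.5) and ZNF141 (14.5 and 14.2). The promoter of HSPA2, an Hsp70 chaperone, had no MOLM13 peak and 41 and 48 summit reads in OCI-AML3, and a region in RBPJ, the DNA-binding partner of Notch, had folds of 13.03 and 12.03. The promoter of ZNF254 (14.5 and 14.3) was the last of the 10. All 10 were called in both treated OCI-AML3 libraries, 7 in both MV4-11 libraries and 1 in both treated MOLM13 libraries.

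The start-site sequences of these promoters are shown because their peaks were complete in one line and missing in the other, together with those of CDKN2A and S100A9 described below. Each run holds 300 bases of RefSeq (GRCh38.p14), from 250 bases before to 50 bases after the start on the gene's strand, written 5′ to 3′. Capitals mark CG, the dinucleotide that can carry DNA methylation.
GOT1 (chr10:99430575-99430874, minus strand), open in MOLM13 only: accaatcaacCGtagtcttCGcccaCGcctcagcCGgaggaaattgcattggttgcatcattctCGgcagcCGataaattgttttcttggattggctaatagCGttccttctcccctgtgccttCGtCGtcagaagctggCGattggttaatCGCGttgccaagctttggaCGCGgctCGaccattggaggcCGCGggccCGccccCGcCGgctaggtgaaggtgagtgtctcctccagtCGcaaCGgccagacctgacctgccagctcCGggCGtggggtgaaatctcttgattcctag
ARRDC4 (chr15:97960453-97960752, plus strand), open in MOLM13 only: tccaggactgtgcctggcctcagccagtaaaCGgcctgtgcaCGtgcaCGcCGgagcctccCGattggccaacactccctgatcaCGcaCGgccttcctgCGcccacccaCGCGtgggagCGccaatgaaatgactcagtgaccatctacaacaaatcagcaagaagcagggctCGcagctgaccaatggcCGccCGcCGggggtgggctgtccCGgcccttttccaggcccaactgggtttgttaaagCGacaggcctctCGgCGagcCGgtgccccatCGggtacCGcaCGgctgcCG
ZNF141 (chr4:337564-337863, plus strand), open in OCI-AML3 only: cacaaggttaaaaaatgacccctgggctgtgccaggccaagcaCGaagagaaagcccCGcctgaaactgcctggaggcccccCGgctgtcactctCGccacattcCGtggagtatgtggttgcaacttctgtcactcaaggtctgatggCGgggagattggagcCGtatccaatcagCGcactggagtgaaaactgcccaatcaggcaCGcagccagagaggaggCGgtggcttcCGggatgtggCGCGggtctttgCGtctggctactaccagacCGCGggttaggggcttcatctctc
ZNF254 (chr19:24086937-24087236, plus strand), open in OCI-AML3 only: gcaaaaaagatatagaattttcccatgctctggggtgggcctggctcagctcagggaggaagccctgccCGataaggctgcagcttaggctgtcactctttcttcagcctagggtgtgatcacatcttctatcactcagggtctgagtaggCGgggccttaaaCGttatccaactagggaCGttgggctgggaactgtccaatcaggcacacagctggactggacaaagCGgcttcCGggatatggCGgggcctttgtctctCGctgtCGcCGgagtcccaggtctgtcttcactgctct
HSPA2 (chr14:64540491-64540790, plus strand), open in OCI-AML3 only: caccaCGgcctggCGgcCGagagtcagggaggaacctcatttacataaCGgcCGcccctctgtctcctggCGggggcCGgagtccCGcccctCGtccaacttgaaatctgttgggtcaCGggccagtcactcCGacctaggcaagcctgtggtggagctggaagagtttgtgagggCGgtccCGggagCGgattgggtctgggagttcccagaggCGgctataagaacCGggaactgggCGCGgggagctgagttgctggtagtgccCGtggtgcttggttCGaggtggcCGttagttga
CDKN2A (chr9:21995275-21995574, minus strand), open in OCI-AML3 only: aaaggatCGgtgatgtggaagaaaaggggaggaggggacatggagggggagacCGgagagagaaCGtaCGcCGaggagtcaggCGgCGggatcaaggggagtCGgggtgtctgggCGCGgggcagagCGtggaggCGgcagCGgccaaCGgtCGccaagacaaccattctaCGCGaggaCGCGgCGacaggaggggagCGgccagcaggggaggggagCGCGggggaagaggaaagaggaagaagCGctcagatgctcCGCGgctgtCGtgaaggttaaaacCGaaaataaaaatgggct
S100A9 (chr1:153357604-153357903, plus strand), open in OCI-AML3 only: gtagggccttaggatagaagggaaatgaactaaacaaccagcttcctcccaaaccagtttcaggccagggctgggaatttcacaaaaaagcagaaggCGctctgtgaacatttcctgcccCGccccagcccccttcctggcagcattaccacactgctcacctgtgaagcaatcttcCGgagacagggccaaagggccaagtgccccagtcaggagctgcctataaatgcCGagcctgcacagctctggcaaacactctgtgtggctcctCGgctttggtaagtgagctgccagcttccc

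The number of CG ranged from 5 in S100A9 to 28 in CDKN2A. Over all genes with a sequence, the median ratio of observed to expected CG was 0.563 in 187 promoters open in MOLM13 only and 0.734 in 356 open in OCI-AML3 only. It was 0.864 in 8527 promoters open in all 4 libraries and 0.2999 in 4590 without any peak. Promoters open in MOLM13 only thus held less CG than those open in OCI-AML3 only, and both held less than promoters open in all 4. The letters CCGGAA, read on both strands and found in sites of ETS factors, occurred in 11.8% of promoters open in MOLM13 only and 23.3% of those open in OCI-AML3 only, against 23.1% of all promoters. The letters TGTGGT, found in RUNX sites, occurred in 16.0% of promoters open in MOLM13 only and 9.27% of those open in OCI-AML3 only, against 10.8% of all. TGANTCA, the AP-1 letters, occurred in 9.63% of promoters open in MOLM13 only and 5.62% of those open in OCI-AML3 only, against 5.70% of all. GAGGAAG, the letters of PU.1, itself an ETS factor, occurred in 16.0% of promoters open in MOLM13 only and 18.3% of those open in OCI-AML3 only, against 14.2% of all. Among promoters without any peak, 14.8% held the RUNX letters, 8.67% the AP-1 letters, 8.28% the ETS letters and 13.6% the PU.1 letters. The letters of CEBP, GATA, MYB, IRF, HOX-PBX and MEF2 were also counted. For RUNX, AP-1, ETS, MYB and IRF, promoters open in MOLM13 only were nearer to promoters without any peak than to all promoters. For PU.1, CEBP, GATA, HOX-PBX and MEF2 they were nearer to all promoters. The CEBP letters occurred in 7.49% of promoters open in MOLM13 only, 11.2% of those without any peak and 8.35% of all. None of these shares was tested.

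The promoters open in OCI-AML3 only were rich in zinc-finger genes, many of which encode KRAB repressors of repeated DNA. This group, all protein-coding symbols of the form ZNF and a number, was chosen after its values were seen. Of 498 such genes 6 were open in MOLM13 only and 63 (12.7%) in OCI-AML3 only, set against 2.34% over all genes. On chromosome 19, 2 of 246 were open in MOLM13 only and 52 (21.1%) in OCI-AML3 only. The other 1161 genes of chromosome 19 had the opposite order, with 36 (3.10%) open in MOLM13 only and 11 (0.947%) in OCI-AML3 only. ZNF91, a repressor of SVA elements, had no peak in MOLM13 and folds of 13.7 and 18.4 in OCI-AML3. ZNF611 also had none in MOLM13, with folds of 15.2 and 15.1 in OCI-AML3. The 63 promoters had median folds of 9.70 and 10.4 in OCI-AML3, close to the 10.2 and 11.6 of the 292 zinc-finger promoters open in all 4 libraries, and all 63 lacked a MOLM13 peak in the full lists. Pairs such as ZNF529 and ZNF382, or ZNF461 and ZNF567, start close to each other and share a peak.

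The libraries outside the comparison held the same split. Of the 52 chromosome 19 promoters, 2 and 2 had a peak in treated MOLM13 cells and 51 and 49 in treated OCI-AML3 cells. MV4-11 control cells had a peak at 36 and 36 of them (69.2% and 69.2%), so that most were open in the other MLL1-r line. Those open in MV4-11 included ZNF254, ZNF91, ZNF726 and ZNF611, and those without a peak in MV4-11 included ZNF441, ZNF433, ZNF563, ZNF442 and ZNF709, which all lie between 10 and 15 Mb. Between 20 and 25 Mb of the chromosome 0 of 32 zinc-finger promoters were open in MOLM13 only and 10 in OCI-AML3 only. Between 50 and 55 Mb 1 of 40 was open in MOLM13 only and 13 in OCI-AML3 only. From 24 to 25 Mb the full MOLM13 lists held 0 and 0 peaks, against 6 and 7 in OCI-AML3. It was the one 1 Mb bin that held at least 5 regions of a line and no peak of the other.

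**Figure D2:**
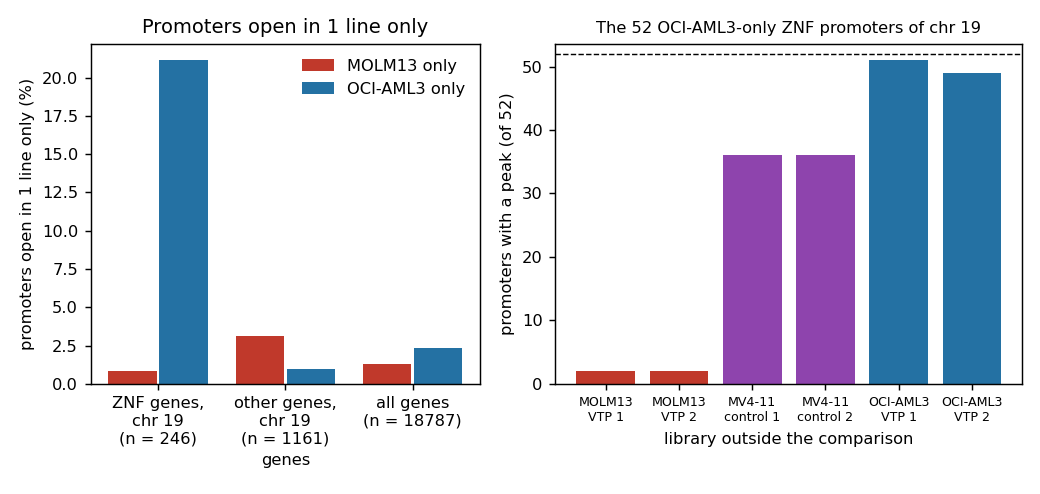
Left, percentage of promoters open in MOLM13 only (red) and in OCI-AML3 only (blue) for zinc-finger genes of chromosome 19, its other genes and all protein-coding genes. Right, number of the 52 OCI-AML3-only zinc-finger promoters of chromosome 19 with a peak in each library outside the comparison (VTP, VTP50469; dashed line, all 52), from 2 in treated MOLM13 to 51 in treated OCI-AML3.

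HOX genes set body position and, in blood, sustain progenitors. Of 10 HOXB genes 0 were open in MOLM13 only and 3 in OCI-AML3 only, where 1.28% and 2.34% of all genes were. HOXB7 had no MOLM13 peak and folds of 4.69 and 5.91 in OCI-AML3. HOXB9 had no MOLM13 peak and folds of 5.19 and 4.58 in OCI-AML3, and HOXB13 none in MOLM13 and 4.46 and 7.91 in OCI-AML3. The cluster from HOXB1 to HOXB9 held 2 and 4 regions per MOLM13 library, against 8 and 10 per OCI-AML3 library. The share of all loci whose counts separate the lines in this way is not given here. No such count, at this or at other loci, was tested. MOLM13 was not without HOXB peaks, since a region in HOXB3 was called in all 4 libraries (7.32 and 7.34 in MOLM13, against 7.61 and 7.19 in OCI-AML3), and HOXB5 had a fold of 11.4 in MOLM13 control 2. HOXB5 was not called in MOLM13 control 1 and had 5.23 and 7.03 in OCI-AML3.

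The HOXA cluster was open in both lines, with 12 and 12 regions in MOLM13 libraries and 16 and 15 in OCI-AML3 libraries. HOXA4 was the one HOXA promoter open in MOLM13 only, with folds of 5.58 and 5.49, and it had no peak in OCI-AML3. HOXA2 (3.99 and 5.55) and HOXA7 (5.18 and 4.47) were open in OCI-AML3 only. The treated libraries differed among these HOX promoters. HOXA4 had a peak in both treated MOLM13 libraries and in both MV4-11 libraries. HOXA7 and HOXB9 had one in both treated OCI-AML3 libraries, HOXB13 in 1 of 2, and HOXA2 and HOXB7 in 0 of 2. None of these 6 had a peak in a treated library of the other line, and of the 5 open in OCI-AML3 only HOXB7 alone had one in MV4-11, in 1 library. HOXA9, the HOX gene most tied to these leukemias, had a peak of 3.98 in 1 of 2 MOLM13 libraries and peaks of 4.84 and 4.68 in OCI-AML3. HOXA10 had folds of 4.31 and 6.54 in MOLM13, against 4.19 and 8.26 in OCI-AML3, and these overlap. HOXA13 had 5.20 and 4.29 in MOLM13, against 7.92 and 11.1 in OCI-AML3; the rank difference did not pass limma's test (adjusted p = 0.104). HOXA5 and HOXA6 had no promoter peak in any of the 4 libraries.

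**Figure D3:**
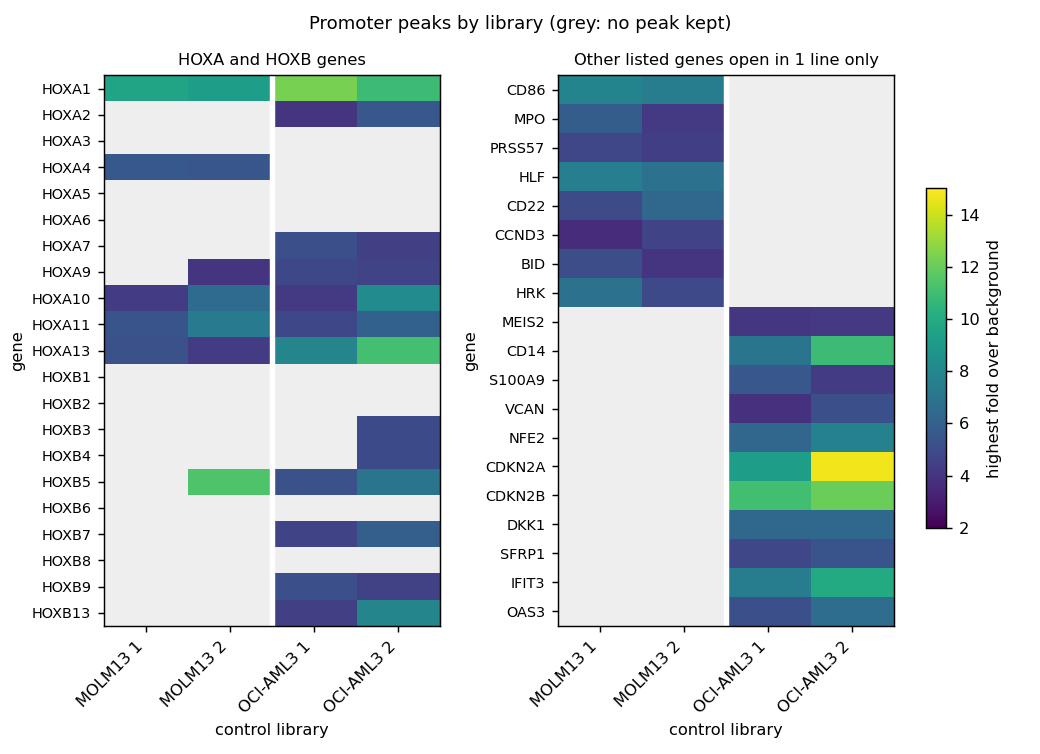
Highest fold over background (colour) of the peaks kept at each promoter, by gene (vertical axis) and control library (horizontal axis), for HOXA and HOXB genes and for the other listed genes open in 1 line only; grey, no peak kept. HOXB7, HOXB9 and HOXB13 have peaks in both OCI-AML3 libraries and in no MOLM13 library; HOXA4 has the opposite pattern.

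As a group, other targets of MLL1 and its fusions were close to the shares over all genes, and single loci are described for their own values. Of 24 such genes 0 had a promoter open in 1 line only, 18 were open in all 4 libraries and 3 had no peak. Their loci (gene body with 5 kb on each side) held 37 MOLM13-only regions (8.81% of 420) and 23 OCI-AML3-only regions (5.48%), against 6.54% and 5.09% over the loci of all genes. MEIS1, the HOX cofactor, held 14 and 13 regions in MOLM13 libraries, against 7 and 6 in OCI-AML3 libraries. Of them 4 were MOLM13-only and 1 OCI-AML3-only. The strongest, 134 kb into the gene (chromosome 2, 66568927 to 66569611), had folds of 8.05 and 8.89 in MOLM13. Its promoter was open in all 4 libraries, with folds of 9.36 and 6.17 in MOLM13, against 7.41 and 7.36 in OCI-AML3.

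The locus of FLT3, a receptor tyrosine kinase, held 13 regions, with 8 and 9 called in MOLM13 libraries, against 2 and 4 in OCI-AML3 libraries. Of these 2 were MOLM13-only and 0 OCI-AML3-only, the stronger with folds of 7.38 and 10.1 at 52.5 kb from the start site and a peak in both MV4-11 libraries. PBX3, a HOX partner, held 8 and 9 regions in MOLM13 and 4 and 6 in OCI-AML3. Of the 16 regions in its locus, again 2 were MOLM13-only and 0 OCI-AML3-only. The histone demethylase family gene JMJD1C held 3 MOLM13-only and 0 OCI-AML3-only regions of 26, and the SUMO protease gene SENP6 held 2 and 0 of 14. Their library counts lay closer together. JMJD1C held 22 and 13 regions in MOLM13, against 9 and 12 in OCI-AML3, and SENP6 held 10 and 5, against 2 and 4. The locus of MEF2C, a myeloid and lymphoid transcription factor, held 24 regions, of which 5 were MOLM13-only, 3 OCI-AML3-only and 4 called in all 4 libraries. The counts went the other way at TCF4, an E-box factor (1 MOLM13-only and 4 OCI-AML3-only), and at CDK6, a G1 kinase (2 and 4). CDK6 held 18 and 14 regions in MOLM13, against 26 and 22 in OCI-AML3. MYB, LAMP5, MYC, MEN1, KMT2A and NPM1 were open at the promoter in all 4 libraries. No promoter region of the MLL1 target list passed limma's test.

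Over all 456 listed genes 9 (1.97%) were open in MOLM13 only and 16 (3.51%) in OCI-AML3 only, against 1.28% and 2.34% of all genes. Primary granule genes had 2 of 26 promoters open in MOLM13 only and 0 in OCI-AML3 only. Their loci had the opposite order, with 4 MOLM13-only regions (5.06% of 79) and 6 OCI-AML3-only regions (7.59%). Over the loci of all genes these shares were 6.54% and 5.09%. MPO, the myeloperoxidase of azurophil granules, had folds of 5.81 and 4.21 in MOLM13 and no peak in OCI-AML3. PRSS57, a granule serine protease, had 4.77 and 4.41 in MOLM13, and a weak OCI-AML3 peak (3.96) in the full list of 1 library. ELANE, the neutrophil elastase gene, had a peak in 1 MOLM13 library (3.64) and in both OCI-AML3 libraries (3.17 and 6.87). Of 38 monocyte promoters 1 was open in MOLM13 only and 3 in OCI-AML3 only, while the loci of these genes held 12 MOLM13-only and 11 OCI-AML3-only regions. CD14, the endotoxin co-receptor, had no MOLM13 promoter peak and folds of 7.04 and 10.9 in OCI-AML3. Its locus also held a MOLM13-only region with folds of 5.88 and 5.79, inside the neighbouring TMCO6, and with a 2.5 kb window CD14 was no longer open in OCI-AML3 only. S100A9, a calprotectin subunit, had none in MOLM13 and 5.51 and 4.34 in OCI-AML3, and VCAN, a matrix proteoglycan, none in MOLM13 and 3.84 and 5.18 in OCI-AML3. CD86, a ligand that costimulates T cells, went the other way with 7.87 and 7.48 in MOLM13 and a peak of 3.30 in the full list of 1 OCI-AML3 library. CD14 was also open in both MV4-11 libraries and in 1 of 2 treated MOLM13 libraries, and S100A9 had a peak in 0 of 2 treated OCI-AML3 libraries.

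Stem and progenitor loci held 25 MOLM13-only regions (10.5% of 237) and 7 OCI-AML3-only regions (2.95%), against 6.54% and 5.09% over the loci of all genes. HLF, a stem cell transcription factor, was the list's one line-only promoter, with folds of 7.56 and 6.84 in MOLM13 and none in OCI-AML3. KIT, the stem cell factor receptor, was open at the promoter in all 4 libraries and held 1 MOLM13-only region, while CD34 had no promoter peak in any of the 4. MHC class II loci held 4 MOLM13-only regions of 50, a share near that over all loci, and 0 OCI-AML3-only regions. AP-1 and immediate early loci held 9 MOLM13-only (9.68% of 93) and 2 OCI-AML3-only regions (2.15%). Housekeeping loci had the same order, with 7 MOLM13-only (7.78% of 90) and 2 OCI-AML3-only regions (2.22%). The order was thus not particular to stem or AP-1 genes. Line-only promoters were few in each list, to be read against the 1.28% and 2.34% of all genes. In the BCL2 family, BID (5.11 and 4.03) and HRK (6.89 and 4.86), which encode inducers of cell death, were open in MOLM13 only. Of 29 Wnt genes 0 were open in MOLM13 only and 2 in OCI-AML3 only, DKK1 (6.39 and 6.38) and SFRP1 (4.76 and 5.40), which encode Wnt antagonists. Of 27 interferon genes 0 were open in MOLM13 only and 2 in OCI-AML3 only, IFIT3 (7.44 and 9.95) and OAS3 (5.16 and 6.63). The remaining line-only promoters were CD22 and CCND3 in MOLM13 and MEIS2 and NFE2 in OCI-AML3. B cell markers had a peak at 3 and 2 of 8 promoters in MOLM13, against 0 and 0 in OCI-AML3, with MS4A1, EBF1 and BLK at none in any of the 4. All 20 genes of Menin, MLL1 and their complex partners, all 14 co-dependency genes, all 19 genes of MYC targets and ribosome biogenesis and all 25 housekeeping genes were open in all 4 libraries.

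The cell cycle inhibitors CDKN2A and CDKN2B were both open in OCI-AML3 only. At the start site used for CDKN2A, that of the sequence above, no MOLM13 peak was called and OCI-AML3 had folds of 9.24 and 14.7. Any other start site of this gene was not examined as a promoter. At CDKN2B no MOLM13 peak was called and OCI-AML3 had 11.0 and 12.1. The full MOLM13 lists held no peak from 21902331 to 22025107 of chromosome 9, a stretch of 123 kb that held 9 and 10 OCI-AML3 peaks and 6 OCI-AML3-only regions. Both treated MOLM13 libraries also lacked a peak at both promoters, and both MV4-11 libraries had one. The neighbouring promoter of MTAP, a salvage enzyme of methionine, was open in all 4 libraries. Its region from 21802303 had folds of 6.99 and 8.68 in MOLM13, against 9.62 and 7.70 in OCI-AML3. Its region from 21803058 had 5.91 and 5.86 in MOLM13, against 5.35 and 9.11 in OCI-AML3. The lines overlap in both regions. Gene dose and accessibility cannot be told apart in peak lists. These stretches were chosen after their values were seen. Others without a peak of one line were 192 kb around ADGRA3, an adhesion receptor (8 OCI-AML3-only regions, 0 peaks in MOLM13), and 255 kb within the locus of DACH1 (8 MOLM13-only regions, 0 peaks in OCI-AML3).

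The loci with the most regions of 1 line were mostly long genes, which hold more regions of any class, so each count is given with the regions of its locus. For MOLM13, NCALD, a neuronal calcium sensor gene, held 13 MOLM13-only regions and 1 OCI-AML3-only region of 42. NTM held 10 and 2 of 53, PLCB1 9 and 0 of 34, MACROD2 9 and 1 of 61, and DACH1 8 and 0 of 38. For OCI-AML3, SGCZ, a sarcoglycan gene, held 0 MOLM13-only and 12 OCI-AML3-only regions of 54. CDH13 held 0 and 10 of 43, GRM8 0 and 9 of 43, and ESR1, the estrogen receptor gene, 0 and 8 of 40. CSMD1 held 3 and 11 of 136, and CNTNAP2 3 and 11 of 105, so that 8.09% and 10.5% of their regions were OCI-AML3-only, against 5.09% over all loci. The median locus held 0 of either class.

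Regions called in all 4 libraries were compared by strength. Their folds were ranked within each library and turned into normal scores, and limma gave the difference in score, MOLM13 minus OCI-AML3. Of 27140 regions 18 (0.0663%) were stronger in MOLM13 and 25 (0.0921%) in OCI-AML3 at an adjusted p below 0.05 (limma, two-sided, Benjamini-Hochberg). All 43 were near the threshold, the lowest adjusted p being 0.0484, and the count depended on single libraries and on the scale. With all 4 libraries limma called 0 and 0 regions with ranks over all peaks, with regions of the uncut lists and with a replicate block, and 929 and 1304 on log2 summit reads. Without MOLM13 control replicate 1 limma called 109 and 115 regions and without replicate 2 it called 96 and 151. Without OCI-AML3 control replicate 1 it called 0 and 0 (1765 and 1721 at an unadjusted p under 0.05), and without replicate 2 also 0 and 0 (1837 and 1669). All 43 kept their sign without each library. They were chosen by their difference in these same libraries, so this is no independent check.

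In MOLM13 the smallest p lay at a region between genes on chromosome 6 (102417253 to 102417940), nearest to LOC101927388. It had folds of 14.3 and 16.4 in MOLM13, against 4.74 and 4.62 in OCI-AML3, a score difference of 3.45 ± 0.44 (SE). Next were a region 35.5 kb from GPBP1 (13.8 and 16.1 in MOLM13, against 4.90 and 4.62 in OCI-AML3) and one inside ZNF704 (13.6 and 11.5 in MOLM13, against 3.99 and 4.39 in OCI-AML3). Of the 18 regions 2 were at promoters. Among regions stronger in OCI-AML3, the promoter of OSMR, the oncostatin M receptor, had folds of 5.94 and 5.78 in MOLM13, against 15.5 and 18.0 in OCI-AML3, a score difference of -3.06 ± 0.43 (SE). The promoters of CROT, a peroxisomal carnitine transferase (4.56 and 5.67 in MOLM13, against 15.03 and 14.67 in OCI-AML3), and EPHX2, an epoxide hydrolase (4.75 and 4.69 in MOLM13, against 11.4 and 17.8 in OCI-AML3), had the same direction. Of the 25 regions 6 were at promoters. The 10 regions of each sign with the smallest p were chosen on these values, so the separation of the lines in them is no further support.

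**Figure D4:**
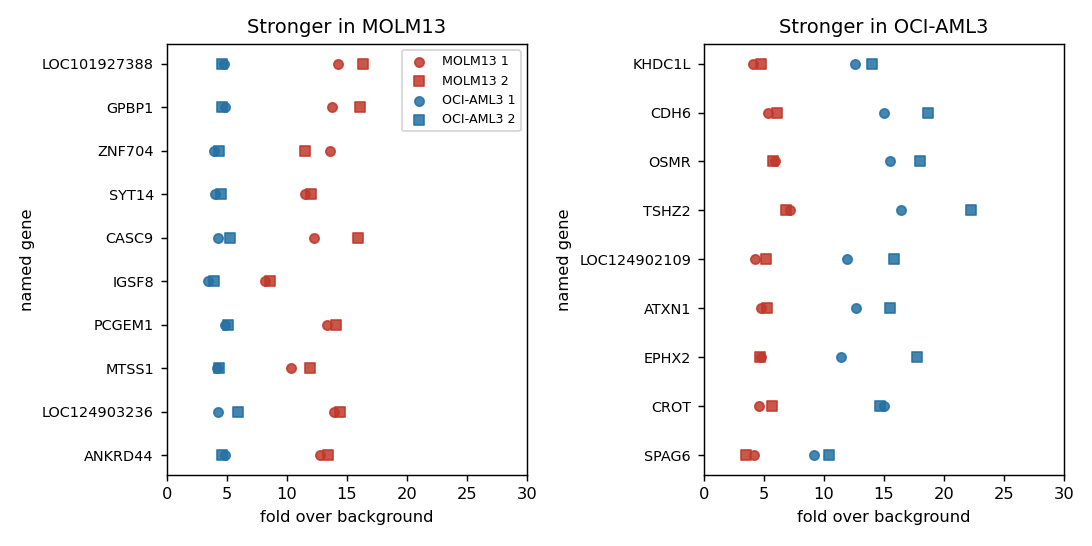
Fold over background (horizontal axis) in MOLM13 (red) and OCI-AML3 (blue) libraries (circle, replicate 1; square, replicate 2) of regions of each sign with the smallest limma p, 10 stronger in MOLM13 and 9 stronger in OCI-AML3, named by gene (vertical axis). The region nearest to LOC101927388 has 14.3 and 16.4 in MOLM13 against 4.74 and 4.62 in OCI-AML3, and the promoter of OSMR has 5.94 and 5.78 in MOLM13 against 15.5 and 18.0 in OCI-AML3.

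Line-only regions were unevenly spread over chromosomes. MOLM13-only regions made up 13.1% of the regions on chromosome 13, 11.4% on chromosome 19, 10.8% on chromosome 20, 8.33% on chromosome 6 and 8.29% on chromosome 8. OCI-AML3-only regions on these chromosomes made up between 3.35% and 4.22%. Only on chromosomes 1, 4 and 7 did OCI-AML3-only regions outnumber MOLM13-only regions (5.06%, 5.49% and 5.07% MOLM13-only, against 6.32%, 6.23% and 6.23% OCI-AML3-only), and on chromosome 9 the counts were equal. Scores of regions called in all 4 libraries moved the same way, with a median difference of 0.28 on chromosome 19, 0.27 on chromosome 13 and 0.16 on chromosome 20, and of -0.14 on chromosome 7 and -0.12 on chromosome 1. FLT3 and DACH1 lie on chromosome 13, and NCALD, LYN and ZHX1 on chromosome 8. PLCB1 and MACROD2 lie on chromosome 20, and SENP6 and MDN1 on chromosome 6. The MOLM13 excess of these genes thus stands beside that of their whole chromosome. CDK6, GRM8 and CNTNAP2 lie on chromosome 7 and ADGRA3 on chromosome 4, where OCI-AML3-only regions were the more numerous. With the median of each chromosome subtracted, an alternative chosen after the data were seen, limma called 0 regions stronger in MOLM13 and 0 stronger in OCI-AML3 (1931 and 2041 at an unadjusted p under 0.05). Whether gene dose has a part in these values was not tested.

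**Figure D5:**
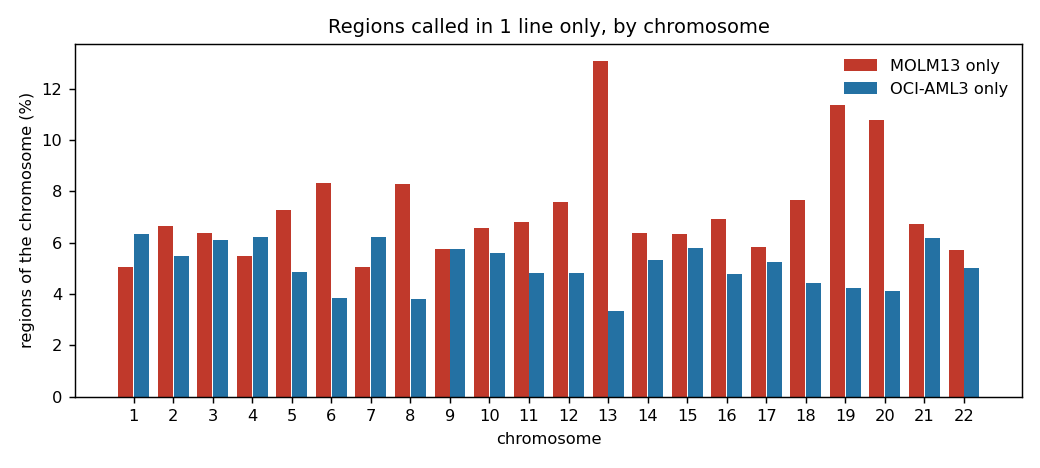
Percentage of the regions of each chromosome (vertical axis) that were MOLM13-only (red) or OCI-AML3-only (blue), by chromosome (horizontal axis). MOLM13-only regions reach 13.1% on chromosome 13, 11.4% on chromosome 19 and 10.8% on chromosome 20, against 3.35%, 4.22% and 4.12% OCI-AML3-only.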

How the data were processed

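The authors deposited one MACS2 peak list per library, in hg38 coordinates, with a fold (a ratio over local background), a −log10 p and a −log10 q for each peak. Their submitters' processing notes name bcl2fastq 2.17, Trimmomatic 0.33, Bowtie 1.1.2 and MACS2 2.1.0, and the study's supplementary methods name another aligner. Replicates were called separately, and the lowest −log10 q listed was 1.30. From these lists peaks on chromosomes 1 to 22 were cut to 69119 per library by −log10 p and merged (at least 1 bp). Summit reads were recovered from the fold and −log10 p with a tolerance of 0.001. Reads copied by PCR are not independent molecules, so the counting error of the read numbers can understate their spread.

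Genes, start sites and sequences came from RefSeq (GRCh38.p14), for 18787 protein-coding genes with a strand (GENCODE gave strand by symbol where the promoter table had none). A promoter sequence matched 15101 of them. Strength was tested with limma 3.58.1 in R 4.3.3, on simulated data first; other values came from Python 3.11.15 with pandas 2.3.3, numpy 2.4.6, scipy 1.17.1 and matplotlib 3.10.9. Alternatives covered the cut, the order of peaks, a −log10 q of at least 5, absence in full lists, overlap of 50 bp, a 2.5 kb window, other scales, each library left out (the lone library of a line then being assumed to vary like the others) and a replicate block.

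The members, the 22 gene lists and the tests were chosen with earlier results of these data known. Genes named are the 10 line-only regions of each line with the highest lower −log10 p and no peak in the full lists of the other line, the 10 regions of each sign with the smallest limma p, the 10 loci with the most regions of each line, listed genes open in 1 line only, and HOXA, HOXB and a fixed set of MLL1 target and myeloid genes. Motifs were counted in RefSeq promoters, in place of the planned windows around summits, since no genome of the files' build was used here. The MV4-11 libraries with inhibitor were not used here, and some items that the rule names are not reported here.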

Additional observations from a re-analysis of the deposited data

How the results depend on the processing

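MOLM13-only regions moved past 1.5 times with 34559 peaks kept per library (4654, beside 4637 OCI-AML3-only), and OCI-AML3-only regions at a −log10 q of at least 5 (4377, beside 6223 MOLM13-only). Without one library, MOLM13-only regions ranged from 11895 to 26816, OCI-AML3-only regions from 8847 to 27506, MOLM13-only promoters from 406 to 460 and OCI-AML3-only promoters from 603 to 713. In the promoter comparison OCI-AML3 had the larger count under every alternative run. The number of regions stronger in MOLM13 and in OCI-AML3 by limma depended on the scale: 102 and 129 with log2 fold, 27 and 53 by rank of −log10 p, 929 and 1304 with log2 summit reads. It was 0 and 0 with regions of the uncut lists (2155 and 2233 at an unadjusted p under 0.05), with ranks over all peaks kept (1649 and 2119), and with chromosome medians subtracted (1931 and 2041). Without one library the counts ranged from 0 to 109 and from 0 to 151. The replicate numbers were taken to mark no pairing, since replicate differences of the 2 lines had a correlation of 0.0268 over 27140 regions. The replicate block gave 0 and 0 calls (2048 and 2088 at an unadjusted p under 0.05). Log2 fold and log2 summit reads kept 43 and 41 of the 43 calls. For 25 listed promoters open in 1 line only, 6 alternatives with all 4 libraries gave 150 values, of which 105 left the gene's state as it was, 45 took it out of that state and 0 reversed it; leaving out a library cannot change such a state. The cause of these changes was not tested. The window of 50 bp around summits was not run. Precision is limited by 10 to 12 reads at a median summit.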
